A study of Saccharomyces cerevisiae with 6 samples.

Results

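The hexose transporter genes *HXT1* to *HXT7* of *Saccharomyces cerevisiae* were followed in native elongating transcript sequencing (NET-seq) libraries of RNA polymerase I (Pol I). They were taken by name and make up 7 of the 6389 annotated genes counted outside the ribosomal DNA (rDNA). Pol I complexes were pulled down by HA-tagged Rpa135, a core subunit of the enzyme, and the associated RNA was sequenced from its growing end. Libraries came from 3 samples of the *rpa12Δ* strain, which lacks the whole *RPA12* gene (the A12.2 subunit of Pol I), and 3 samples of the WT strain, from which it is said to derive. Both strains carry the HA tag, and both were grown in the glucose medium YEPD to A600 = 0.3 in 3 litres per sample. How the deletion changes Pol I on its own template was the purpose of the study, and genes transcribed by RNA polymerase II (Pol II), such as these, are outside the template that the tagged enzyme is known to transcribe.

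The Hxt proteins sit in the plasma membrane and let glucose and fructose enter the cell by facilitated diffusion, down the concentration gradient. Their transcription follows the sugar supply. The glucose sensors Snf3 and Rgt2 act through Mth1 and Std1 on the repressor Rgt1, which keeps *HXT* genes silent when glucose is absent, while the repressor Mig1, under the control of the Snf1 kinase, keeps the genes of high-affinity transporters low when glucose is plentiful. *HXT1* and *HXT3* encode low-affinity carriers suited to high glucose, *HXT2* and *HXT4* encode carriers induced by low glucose, *HXT6* and *HXT7* encode near-identical high-affinity carriers, and *HXT5* is known for expression in slowly growing or starved cells.

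The libraries held 13588526 to 14634449 reads in the *rpa12Δ* strain and 4344302 to 6755222 reads in WT. Reads outside the rDNA were 4674055 to 4859327 in *rpa12Δ* libraries, 33.2% to 34.6% of the total, and 1165143 to 1662542 in WT libraries, 24.6% to 27.3%. Values below are read ends per 1000000 reads outside the rDNA (RPM), so that 1 read was worth 0.206 to 0.214 RPM in *rpa12Δ* libraries and 0.601 to 0.858 RPM in WT libraries. *RPA12* itself had 0, 0 and 1 reads in the *rpa12Δ* libraries and 8, 9 and 3 reads in the WT libraries, as the labels require. The a-specific genes stood apart between the strains, since all 6 listed genes together gave 176 to 233 RPM in *rpa12Δ* libraries and 5.60 to 13.7 RPM in WT libraries (the 3 of them that passed the filter did so only through their *rpa12Δ* values). Of 4 alpha-specific genes listed, 2 were matched in the annotation, and the 1 that passed the filter, *SAG1*, was not called (log2 difference -0.44, limma adjusted p = 0.320). *SAG1* passed only through its WT values, with means of 9.36 RPM in *rpa12Δ* and 12.6 RPM in WT. The other, *STE3*, had 7 reads in *rpa12Δ* (mean 0.487 RPM) and 8 reads in WT (mean 1.81 RPM). Mating type is not given in the labels, and its part and that of the *RPA12* deletion in the values below cannot be told apart. Across the genes tested, Spearman's rho was 0.945 to 0.973 within *rpa12Δ* libraries, 0.937 to 0.947 within WT libraries and 0.850 to 0.894 between the strains. The study's text calls the replicates biological, while the labels do not name separate cultures, and p-values measure the spread between these libraries.

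In R64 coordinates, 3 members lie close together on chromosome VIII, on the minus strand, namely *HXT4* (chrVIII:287081-288811), *HXT1* (chrVIII:290913-292625) and *HXT5* (chrVIII:294669-296447). Another 3 lie on the minus strand of chromosome IV, namely *HXT7* (chrIV:1154216-1155928), *HXT6* (chrIV:1159608-1161320) and *HXT3* (chrIV:1162957-1164660). *HXT2* (chrXIII:288079-289704) lies alone on the plus strand. Counting covered the whole annotated gene, from 1626 nt for *HXT2* to 1779 nt for *HXT5*, and 0 other annotated genes overlapped any member. The 7 genes held 5122 reads over the 6 libraries. Of the 7, 6 passed the filter of a mean of at least 10 RPM over all libraries, each with a mean over 10 RPM in both strains, and *HXT5* did not.

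Per length, the order of the members differed between the strains. In the *rpa12Δ* strain, *HXT2* (52.1 ± 4.75 RPM per kb) and *HXT3* (51.9 ± 2.96 RPM per kb) led and overlapped each other. They were followed by *HXT1* (14.2 ± 2.23), *HXT7* (13.6 ± 2.99) and *HXT6* (12.4 ± 4.71 RPM per kb), whose ranges over libraries also overlapped, then by *HXT4* (6.65 ± 0.47) and *HXT5* (0.510 ± 0.447 RPM per kb; SD, n = 3 each). In WT, *HXT3* (63.1 ± 6.70 RPM per kb) led, with all libraries above those of *HXT2* (41.9 ± 7.12 RPM per kb). *HXT6* (31.8 ± 2.81) and *HXT7* (29.6 ± 0.581 RPM per kb) came next and overlapped each other, then *HXT1* (20.6 ± 4.67) and *HXT4* (17.9 ± 3.61), which overlapped too, and *HXT5* (0.678 ± 0.286 RPM per kb; SD, n = 3 each). Among 5983 protein-coding genes ranked by mean RPM per kb, *HXT4* stood at percentile 58.0 in *rpa12Δ* and 80.6 in WT, *HXT6* at 77.3 in *rpa12Δ* and 89.2 in WT, *HXT7* at 79.3 in *rpa12Δ* and 88.4 in WT, and *HXT1* at 80.1 in *rpa12Δ* and 83.1 in WT. The other 3 stood slightly higher in *rpa12Δ*, *HXT2* at percentile 95.003 in *rpa12Δ* and 91.4 in WT, *HXT3* at 94.97 in *rpa12Δ* and 94.4 in WT, and *HXT5* at 7.74 in *rpa12Δ* and 7.30 in WT. The separate levels, ranks and percentiles of *HXT6* and *HXT7* are uncertain in both strains. As described below, 99.6% of the *HXT6* reads and 93.6% of the *HXT7* reads had a mapping quality of 0 and are placed in either gene.

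**Figure D1:**
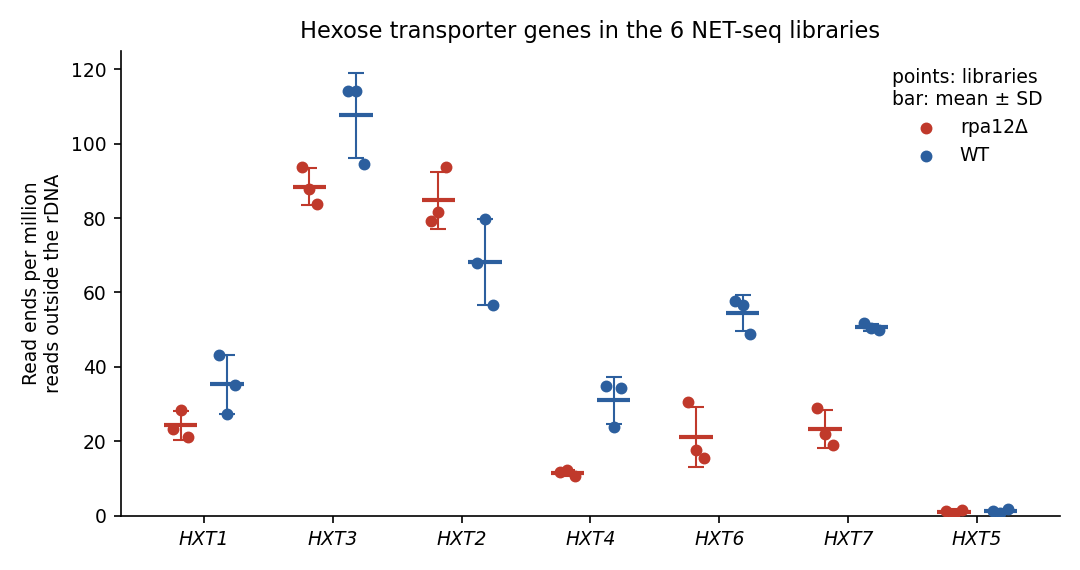
RPM (y axis) for each hexose transporter gene (x axis) in the 3 *rpa12Δ* libraries (red, left) and the 3 WT libraries (blue, right), with bars for the mean and the SD. All *rpa12Δ* points lie below all WT points for *HXT3*, *HXT4*, *HXT6* and *HXT7*, and the points overlap for *HXT1*, *HXT2* and *HXT5*.

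Of the 6 members tested, 3 were called lower in the *rpa12Δ* strain (*HXT4*, *HXT6* and *HXT7*) and 0 were called higher, by limma at an adjusted p under 0.05. Over all 2902 genes tested, 747 were called lower (25.7%) and 156 higher (5.38%), and the median log2 difference was -0.26, so the members are read against a table that leaned the same way. *HXT6* and *HXT7* are not separate evidence, because their reads are placed in either gene. All *rpa12Δ* libraries lay below all WT libraries for 4 of the 6 members tested and for 33.5% of all genes tested, and above all WT libraries for 0 of the 6 members and 10.1% of all genes tested. In such samples, a smaller number of cells with the transcripts and less RNA per cell cannot be told apart. The values are read ends in a Pol I pulldown, and the level of these RNAs in the cells was not measured. How much of such RNA the pulldown kept in each strain was not tested.

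The low-affinity carriers used in high glucose did not pass the test. *HXT1* had 113, 133 and 99 reads in the *rpa12Δ* libraries, or 23.3, 28.5 and 21.0 RPM, and 72, 39 and 41 reads in the WT libraries, or 43.3, 27.3 and 35.2 RPM. The strains overlapped, since WT replicate 2 lay below *rpa12Δ* replicate 2. The 3 libraries of each strain averaged 24.2 ± 3.82 RPM in *rpa12Δ* and 35.3 ± 8.0 RPM in WT (SD). The log2 difference was -0.51 ± 0.21 (SE; limma adjusted p = 0.0770). Without WT replicate 2 the log2 difference was -0.68 with a limma adjusted p of 0.0357, past the threshold. By the median ratio it was -0.25 (limma adjusted p = 0.335) and by quantile normalization -0.16 (0.558). With all reads, rDNA included, as the denominator it was -0.13 (0.620), and with each aligned interval counted once -0.14 (0.601). None of these 4 was past the threshold, and 3 of 20 alternatives were.

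*HXT3*, which in WT was the member with the highest level per length as the reads were placed, had 93.8, 87.7 and 83.8 RPM in *rpa12Δ* libraries and 114, 114 and 94.4 RPM in WT libraries. No *rpa12Δ* library reached the lowest WT library, though *rpa12Δ* replicate 1 and WT replicate 3 nearly met. Its log2 difference of -0.28 ± 0.15 (SE; limma adjusted p = 0.186) lay beside the median of all genes tested, and it was -0.01 once libraries were scaled by the median ratio and 0.10 with all reads, rDNA included, as the denominator.

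Of the carriers induced by low glucose, *HXT4* was called lower in the *rpa12Δ* strain and *HXT2* was not called. *HXT2* had 385, 381 and 441 reads in the *rpa12Δ* libraries, which are 79.2, 81.5 and 93.6 RPM, and 113, 114 and 66 reads in the WT libraries, which are 68.0, 79.8 and 56.6 RPM. WT replicate 2 lay between the *rpa12Δ* libraries, so the strains overlapped. The means of 84.8 ± 7.72 RPM in *rpa12Δ* and 68.1 ± 11.6 RPM in WT (SD over 3 libraries of each strain) gave a log2 difference of 0.32 ± 0.17 (SE; limma adjusted p = 0.165). Of the 7 members, *HXT2* alone had a positive difference at this scaling, and its call depended on the scaling. It was 0.59 by the median ratio (limma adjusted p = 0.00688), 0.59 by quantile normalization (0.0169), 0.67 with all reads as the denominator (0.00237) and 0.86 with each aligned interval counted once (3.26e-05), all past the threshold. Of 21 alternatives, only these 4 were past it. With libraries thinned to equal depth the log2 difference was 0.36 (limma adjusted p = 0.178), and with reads of at least 25 nt it was 0.16 (0.552).

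*HXT4* had 11.7, 12.2 and 10.6 RPM in *rpa12Δ* libraries, from 57, 57 and 50 reads, and 34.9, 23.8 and 34.3 RPM in WT libraries, from 58, 34 and 40 reads. The lowest WT library was well above the highest *rpa12Δ* library. *HXT4* averaged 11.5 ± 0.813 RPM in *rpa12Δ* and 31.01 ± 6.25 RPM in WT (SD over 3 libraries of each strain), and its log2 difference of -1.34 ± 0.21 (SE; 95% interval -1.79 to -0.88; limma adjusted p = 0.000206) was past the threshold. Its *rpa12Δ* mean was 0.371 of its WT mean.

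The high-affinity pair gave lower values in the *rpa12Δ* strain as well. *HXT6* had 30.5, 17.8 and 15.5 RPM in *rpa12Δ* libraries and 57.7, 56.7 and 48.9 RPM in WT libraries. *HXT7* had 29.0, 21.8 and 19.1 RPM in *rpa12Δ* libraries and 51.7, 50.4 and 49.8 RPM in WT libraries. In both genes *rpa12Δ* replicate 1 was the highest of its strain and still lay below every WT library. The log2 difference was -1.37 ± 0.23 for *HXT6* (limma adjusted p = 0.000273) and -1.11 ± 0.19 for *HXT7* (limma adjusted p = 0.000401; SE).

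Summed to a single row, which the placement of reads between the 2 genes cannot move, *HXT6* and *HXT7* had 289, 185 and 163 reads in *rpa12Δ* libraries and 182, 153 and 115 reads in WT libraries. These are 59.5, 39.6 and 34.6 RPM in *rpa12Δ* libraries and 109.5, 107.1 and 98.7 RPM in WT libraries, again with no overlap. The sum averaged 44.6 ± 13.2 RPM in *rpa12Δ* and 105.1 ± 5.66 RPM in WT (SD over 3 libraries of each strain), and the log2 difference was -1.26 ± 0.19 (SE; 95% interval -1.67 to -0.85; limma adjusted p = 0.000133). Without *rpa12Δ* replicate 1 it was -1.48. The exact two-sided permutation test gave p = 0.1 for *HXT3*, *HXT4*, *HXT6*, *HXT7* and the sum, the smallest p that 3 libraries against 3 allow, 0.2 for *HXT1* and *HXT2*, and 0.7 for *HXT5*.

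*HXT5* was close to the floor. It had 6, 0 and 7 reads in *rpa12Δ* libraries and 2, 1 and 2 reads in WT libraries, which are 1.23, 0 and 1.49 RPM in *rpa12Δ* and 1.20, 0.700 and 1.72 RPM in WT. A count of 3 reads, taken as the floor, equals 0.617 to 0.642 RPM in *rpa12Δ* libraries and 1.80 to 2.57 RPM in WT libraries, so every WT value was under it and a difference was not detectable at this depth. In the fit over all 6260 genes with a read, where 1014 (16.2%) were called in either direction, its log2 difference was -0.29 ± 0.37 (SE; limma adjusted p = 0.648). On the opposite strand *HXT5* held 13, 3 and 4 reads in *rpa12Δ* libraries and 3, 4 and 2 reads in WT libraries. Summed over the libraries, these are 20 reads against 13 on its own strand in *rpa12Δ* and 9 reads against 5 in WT, though *rpa12Δ* replicate 3 had more on its own strand and WT replicate 3 had equal numbers. Each of the other 6 members held 0 to 2 opposite-strand reads per library.

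**Figure D2:**
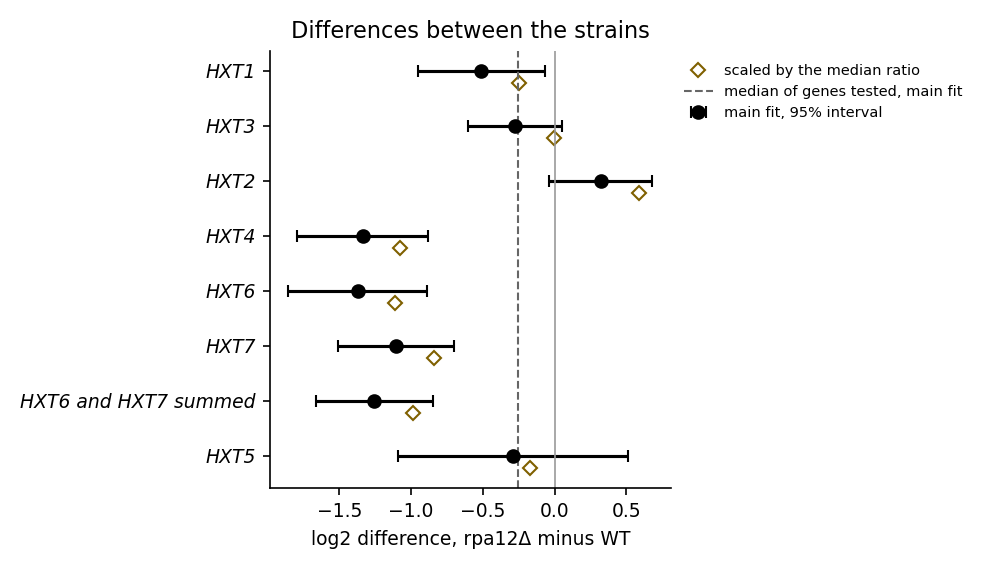
Log2 difference in RPM, *rpa12Δ* minus WT (x axis), for each hexose transporter gene and for *HXT6* and *HXT7* summed (y axis). Filled circles with bars give the limma estimate and its 95% interval, open diamonds the estimate after scaling by the median ratio, and the dashed line the median of all genes tested at -0.26. *HXT4*, *HXT6* and *HXT7* lie left of that median, *HXT3* lies on it, and *HXT2* lies to its right.

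The scaling moved the whole table. With all reads as the denominator, where the median of all genes tested was 0.09, 380 genes were called lower and 591 higher. The median ratio gave 508 lower and 479 higher, quantile normalization 445 lower and 519 higher, and distinct intervals 445 lower and 845 higher, with medians of 0.00, 0.06 and 0.17 in log2. Under these 4 scalings *HXT4* ranged from -1.08 to -0.88, *HXT6* from -1.11 to -0.94 and *HXT7* from -0.84 to -0.68, all past the threshold.

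Shares within the 7 genes need no denominator from the rest of the library. Together the 7 genes held 254 ± 12.6 RPM in *rpa12Δ* and 348 ± 25.4 RPM in WT (SD of 3 libraries). *HXT2* made up 33.4 ± 4.40% of their reads in *rpa12Δ* (29.5% to 38.2%) and 19.5 ± 2.70% in WT (17.6% to 22.6%). *HXT6* and *HXT7* together made up 17.4 ± 4.21% in *rpa12Δ* (14.1% to 22.1%) and 30.2 ± 0.64% in WT (29.5% to 30.7%). Neither pair of ranges overlapped, and the *HXT4* share, 4.53 ± 0.31% in *rpa12Δ* and 8.95 ± 2.01% in WT, did not overlap either.

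*HXT3* took 34.8 ± 0.50% of the reads in *rpa12Δ* (34.2% to 35.2%) and 30.8 ± 1.47% in WT (29.4% to 32.3%), also without overlap. *HXT1* took 9.54 ± 1.61% in *rpa12Δ* and 10.1 ± 2.10% in WT, with overlap (SD of 3 libraries). Relative to *HXT3*, *HXT2* stood at 0.963 ± 0.139 reads per *HXT3* read in *rpa12Δ* and 0.631 ± 0.059 in WT. The *HXT6* and *HXT7* sum stood at 0.499 ± 0.118 reads per *HXT3* read in *rpa12Δ* and 0.981 ± 0.057 in WT. Shares of a whole are tied to each other, so that these are descriptions of the same differences and not further tests.

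**Figure D3:**
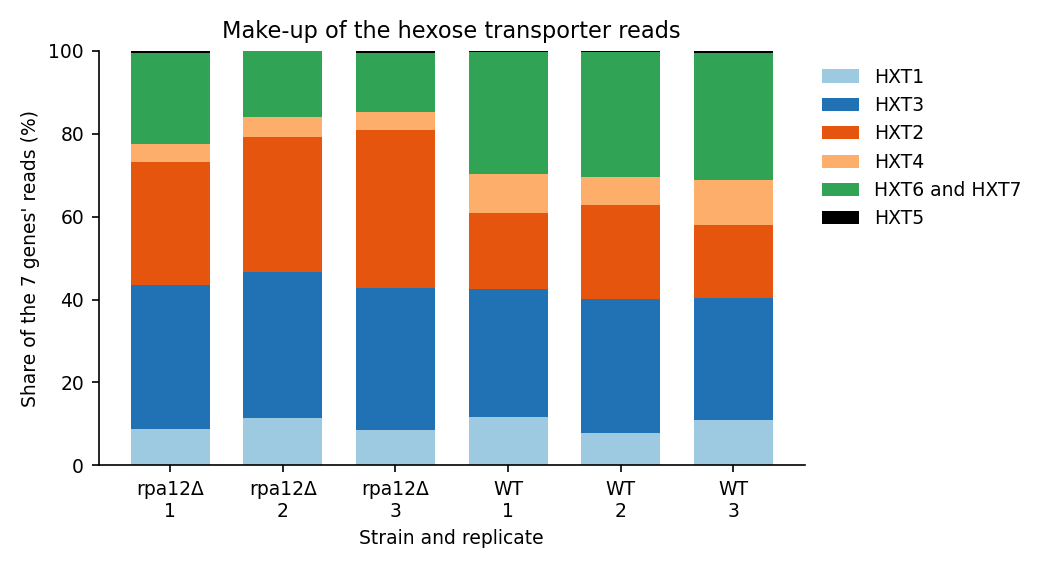
Share of the reads in the 7 hexose transporter genes that fell in each gene (y axis, percent) for each *rpa12Δ* and WT library (x axis), with *HXT6* and *HXT7* added together. The *HXT2* band covers 29.5% to 38.2% in the *rpa12Δ* libraries and 17.6% to 22.6% in the WT libraries.

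Mapping quality, the aligner's score for how surely a read belongs where it was placed, divided the members sharply. Over the 6 libraries, 90.8% of the 1500 *HXT2* reads, 85.5% of the 497 *HXT1* reads, 78.7% of the 1724 *HXT3* reads and 75.3% of the 296 *HXT4* reads had a quality above 10. *HXT6* had 1 such read of 538, and 99.6% of its reads had a quality of 0. *HXT7* had 27 such reads of 549, with 93.6% at 0. The reads of the pair were divided almost evenly, *HXT7* taking 53.0 ± 3.69% of them in *rpa12Δ* and 48.2 ± 1.90% in WT (SD of 3 libraries). The separate *HXT6* and *HXT7* values are therefore uncertain, and the sum is the better measure.

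**Figure D4:**
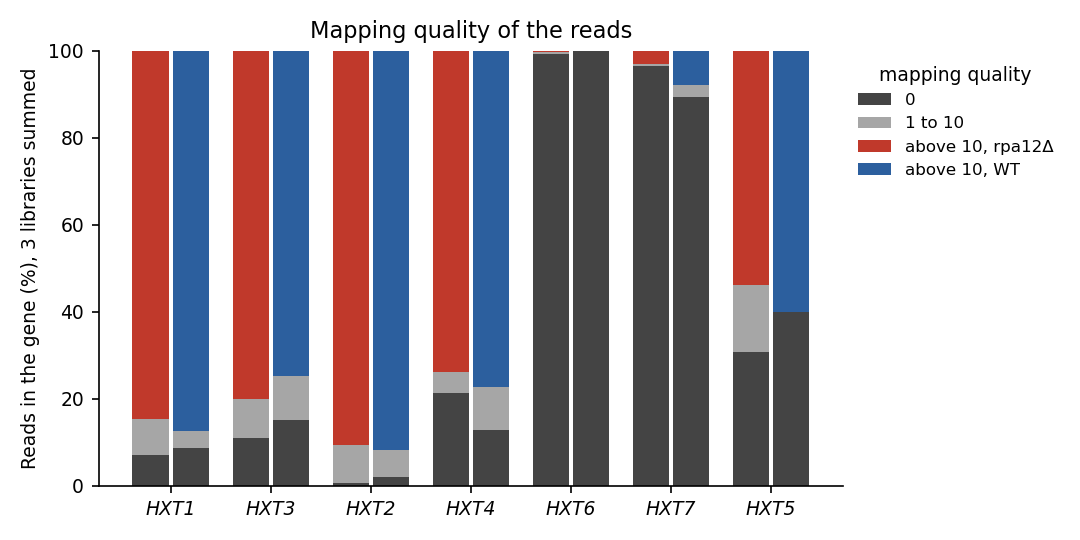
Share of the reads in each hexose transporter gene (y axis, percent, 3 libraries summed) by mapping quality of 0 (dark grey), 1 to 10 (light grey) and above 10 (red for *rpa12Δ*, left bar; blue for WT, right bar). In both strains nearly all *HXT6* and *HXT7* reads have a quality of 0, whereas most *HXT1*, *HXT2*, *HXT3* and *HXT4* reads have a quality above 10.

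A stretch at the end of *HXT7* kept well-placed reads. From position 1632 of the gene to 216 nt past its last base, 72 reads had a quality above 10, namely 19, 6 and 3 in *rpa12Δ* libraries and 15, 15 and 14 in WT libraries. These equal 3.91, 1.28 and 0.637 RPM in *rpa12Δ* libraries and 9.02, 10.5 and 12.0 RPM in WT libraries, without overlap. The averages were 1.94 ± 1.73 RPM in *rpa12Δ* and 10.5 ± 1.497 RPM in WT (SD of 3 libraries). At the end of *HXT6* and in the 300 nt beyond it, only 3 reads had such a quality, 1 in each *rpa12Δ* library and 0 in each WT library. With reads of a quality above 10 only, the log2 difference of *HXT7* was -1.74 (limma adjusted p = 0.0127, from the fit over all genes with a read, since *HXT7* was then below the filter) and that of *HXT4* was -1.45 (limma adjusted p = 0.000828).

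Positions of the read ends, counted from 1 at the first base of the annotated gene, were not spread evenly in most members. In *HXT1*, *HXT4*, *HXT6* and *HXT7* the highest single position was the same distance, 938 nt, before the last base of the gene, and it was the highest in all 6 libraries of each. It is position 775 in *HXT1*, *HXT6* and *HXT7* and position 793 in *HXT4*. The match was looked for after the profiles had been seen.

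*HXT1* had 31, 42 and 20 reads at that position in *rpa12Δ* libraries, 20.2% to 31.6% of the gene's reads, and 22, 5 and 8 reads in WT libraries, 12.8% to 30.6%. *HXT4* had 15, 11 and 5 reads there in *rpa12Δ* libraries (10.0% to 26.3%) and 17, 5 and 5 reads in WT libraries (12.5% to 29.3%). In both genes the strains overlapped in the share. Of these reads, 81 of 93 in *rpa12Δ* and 34 of 35 in WT had a quality above 10 in *HXT1*. In *HXT4*, 31 of 31 in *rpa12Δ* and 25 of 27 in WT did. Most reads at the position thus passed this quality cut, though it does not exclude that some belong to another member.

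In the near-identical pair, *HXT6* had 29, 15 and 8 reads at the position in *rpa12Δ* libraries and 17, 5 and 6 in WT libraries, and *HXT7* had 36, 17 and 7 in *rpa12Δ* libraries and 12, 7 and 4 in WT libraries. In RPM, *HXT6* averaged 3.63 ± 2.17 there in *rpa12Δ* and 6.29 ± 3.50 in WT (SD of 3 libraries). *HXT7* averaged 4.18 ± 3.00 RPM in *rpa12Δ* and 5.18 ± 1.91 RPM in WT, and the strains overlapped in both genes. None of these reads had a quality above 10 in either gene. The matching position of *HXT3*, 766, had 9, 7 and 3 reads in *rpa12Δ* libraries and 0, 1 and 0 reads in WT libraries. *HXT2* and *HXT5* had 0 reads at the same distance. When each gene's highest position was left out of the counts, the summed *HXT6* and *HXT7* difference was -1.35, *HXT4* was -1.31, and *HXT1* (-0.60, limma adjusted p = 0.0159) and *HXT3* (-0.39, limma adjusted p = 0.0322) passed the threshold as well.

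*HXT3* had its own highest position near the start of the gene, at position 25. It held 123, 70 and 49 reads in *rpa12Δ* libraries, or 27.0%, 17.1% and 12.4% of the gene's reads, and 31, 12 and 15 reads in WT libraries, or 16.3%, 7.36% and 13.6%. In RPM, these are 25.3, 15.0 and 10.4 in *rpa12Δ* libraries and 18.6, 8.40 and 12.9 in WT libraries, and the strains overlapped. *HXT2* had no such position, the highest taking 0.787% to 2.08% of its reads in *rpa12Δ* libraries and 2.65% to 6.14% in WT libraries.

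**Figure D5:**
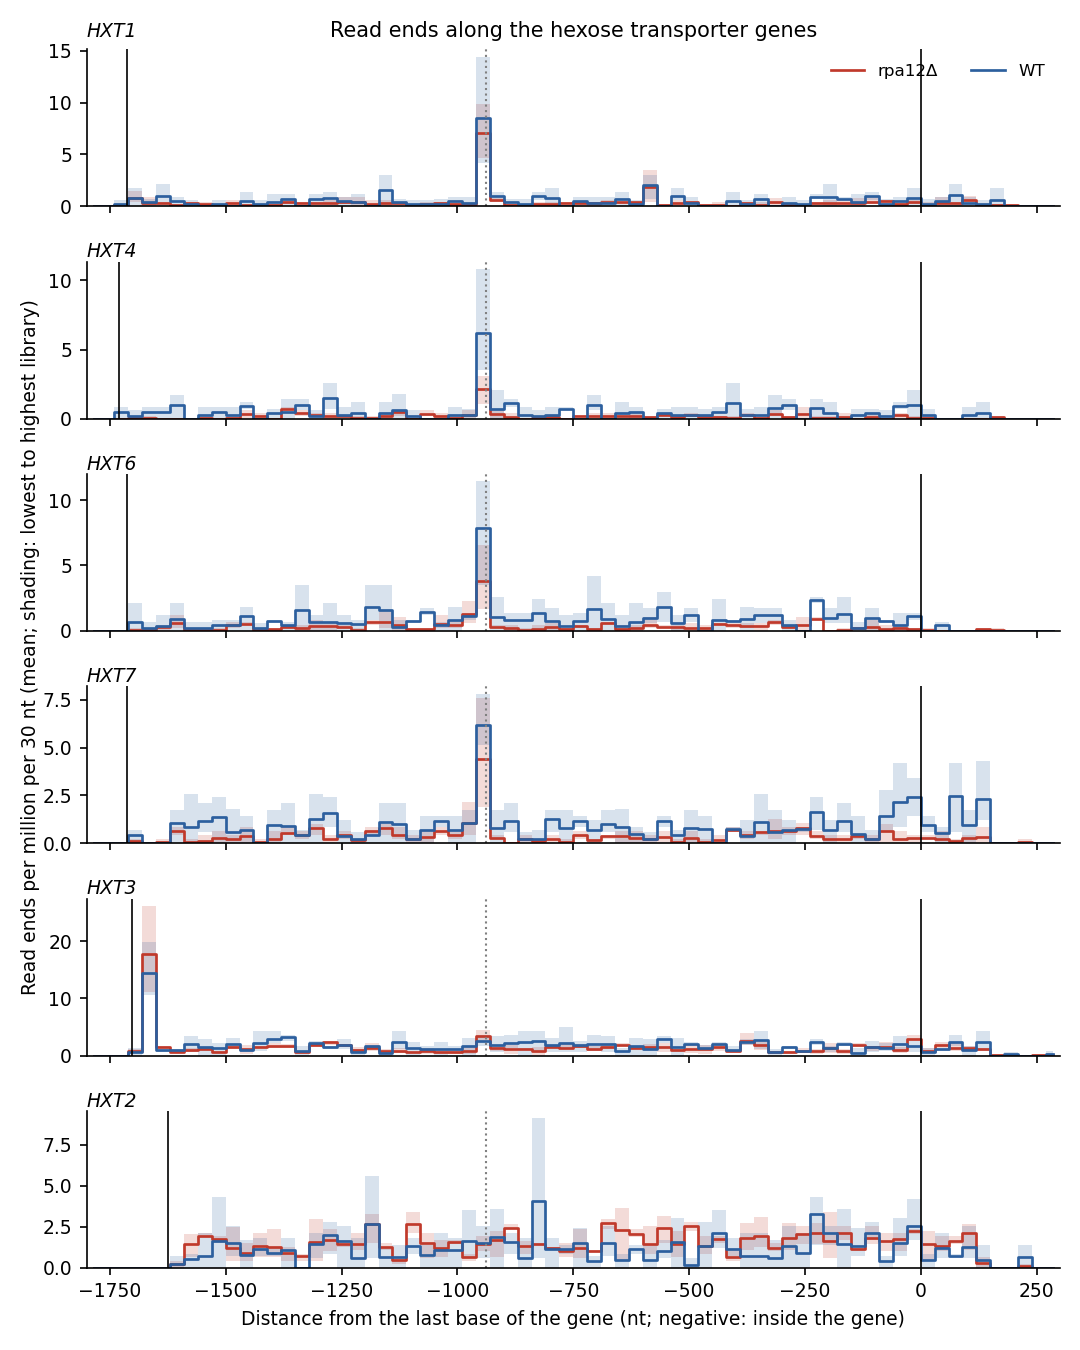
RPM of read ends in bins of 30 nt (y axis) by distance from the last base of the gene (x axis, nt, negative inside the gene) for 6 hexose transporter genes, as the mean of 3 *rpa12Δ* libraries (red) and 3 WT libraries (blue), with shading from the lowest to the highest library. Solid vertical lines mark the first and last base of the gene, and the dotted line marks 938 nt before the end, where *HXT1*, *HXT4*, *HXT6* and *HXT7* have their highest position.

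Reads went on past the annotated end of several members. In the 300 nt beyond the gene, *HXT3* had 6.67 ± 0.511 RPM in *rpa12Δ* and 7.97 ± 3.40 RPM in WT, and *HXT2* had 6.93 ± 2.54 RPM in *rpa12Δ* and 4.82 ± 1.67 RPM in WT. The strains overlapped in both genes. Beyond *HXT7* there were 1.32 ± 1.18 RPM in *rpa12Δ* and 7.203 ± 3.37 RPM in WT, without overlap (SD, n = 3 each), while *HXT4* had 0 to 2 reads there in every library. Beyond *HXT6* there were only 0.277 ± 0.313 RPM in *rpa12Δ* and 0.434 ± 0.379 RPM in WT, with overlap (SD, n = 3 each).

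The other hexose transporter genes (*HXT8* to *HXT17* and the galactose transporter gene *GAL2*) had few reads. All 11 were found and 0 passed the filter, with 14 reads in the 3 *rpa12Δ* libraries and 17 reads in the 3 WT libraries. As the WT libraries were smaller, the summed values were 0.637 to 1.44 RPM in *rpa12Δ* libraries and 3.43 to 4.21 RPM in WT libraries. *HXT8* gave 12 of the 17 WT reads. *HXT11*, *HXT16* and *HXT17* had no read in any library. *HXT8*, picked out after its values were seen, had 4, 1 and 1 reads in *rpa12Δ* libraries and 3, 5 and 4 reads in WT libraries. It averaged 0.416 RPM in *rpa12Δ* and 2.91 RPM in WT. Its log2 difference was -1.46 (limma adjusted p = 0.00742) in the fit over all genes with a read, where 16.2% were called.

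Among genes that act above the transporters, the counts are given beside those of all genes tested. Of the 10 genes of the Snf3 and Rgt2 sensing route, 7 were tested, and 0 were called higher and 3 lower, against 5.38% and 25.7% of all genes tested, with a median log2 difference of -0.48 against -0.26 over all genes tested. The 3 were *TUP1* and *SSN6* (named *CYC8* in the annotation), which form the general co-repressor that Rgt1 and Mig1 use, and *GRR1*, which encodes the F-box protein that targets Mth1 and Std1 for destruction. *TUP1* was 40.6 RPM in *rpa12Δ* and 64.9 RPM in WT on average (log2 difference -0.67, limma adjusted p = 0.00779), *GRR1* differed by -0.61 in log2 (limma adjusted p = 0.0443, and 0.0802 in the fit over all genes with a read, where the call was lost) and *SSN6* by -0.58 (limma adjusted p = 0.0252). *RGT1*, the repressor gene, averaged 97.5 RPM in *rpa12Δ* and 98.3 RPM in WT (log2 difference -0.10, limma adjusted p = 0.779). It had 151, 74.0 and 67.3 RPM in *rpa12Δ* libraries and 111, 84.0 and 99.6 RPM in WT libraries. The like means thus rest on *rpa12Δ* replicate 1, since *rpa12Δ* replicates 2 and 3 lay below every WT library. The sensor genes *SNF3* and *RGT2* and the co-regulator gene *MTH1* were below the filter. *STD1*, which counts among the 7 tested and was not called, passed the filter only through its WT values. It averaged 9.55 RPM in *rpa12Δ* and 13.2 RPM in WT.

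Of the 14 genes of the Snf1 and Mig1 route, 9 were tested, and 0 were called higher and 2 lower, again against 25.7% lower among all genes tested, with a median of -0.31 against -0.26. These were *REG1*, a regulatory subunit of the Glc7 phosphatase, at -0.85 (limma adjusted p = 0.00386), and *HXK2*, the main hexokinase of glucose-grown cells, at -0.66 (limma adjusted p = 0.00289). *SNF1* had a log2 difference of 0.21 (limma adjusted p = 0.516) and *MIG1* one of -0.31 (limma adjusted p = 0.458).

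Of the 4 genes listed for phosphorylating the sugar once it has entered, *EMI2* was below the filter, and *GLK1* and *HXK1* passed it only through their WT values, so that no count over the list is read. *GLK1*, encoding glucokinase, had 8.03, 8.77 and 7.43 RPM in *rpa12Δ* libraries and 29.5, 14.0 and 32.6 RPM in WT libraries (log2 difference -1.46, limma adjusted p = 0.00108). *HXK1*, the hexokinase gene known to be repressed by glucose, had 10.7, 4.06 and 5.09 RPM in *rpa12Δ* libraries and 15.6, 16.1 and 24.9 RPM in WT libraries (log2 difference -1.45, limma adjusted p = 0.00251). *HXK2*, the only one with a mean over 10 RPM in both strains, had 72.0, 75.7 and 72.4 RPM in *rpa12Δ* libraries and 122.1, 116.9 and 110.7 RPM in WT libraries.

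Among 13 genes known to be repressed by glucose, 2 were tested, with a median of -1.01, and 0 were called higher and 1 lower, against 25.7% lower among all genes tested. This was *ADR1*, an activator of genes for ethanol use, with 35.4, 11.8 and 13.8 RPM in *rpa12Δ* libraries and 55.9, 51.8 and 59.2 RPM in WT libraries (log2 difference -1.57, limma adjusted p = 0.000825). As in *HXT6* and *HXT7*, *rpa12Δ* replicate 1 was the highest of its strain. This was not particular to these genes, since it also held for *RGT1*, *REG1* and *TUP1*, though not for *HXK2* or *ADH2*. *ADH2*, the alcohol dehydrogenase that consumes ethanol, had a log2 difference of -0.44 (limma adjusted p = 0.0834).

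The genes whose log2 values over the 6 libraries lay nearest to those of the 2 members with the highest mean level were found by Euclidean distance, each gene centred on its own mean. Nearest to *HXT3* were YNCD0005C (distance 0.106), *RPD3* (0.156) and *SSE1* (0.160). Nearest to *HXT2* were YNCJ0002C (0.182), *UTP9* (0.197) and *PHO86* (0.210). Distances over 6 libraries that share a denominator describe likeness in these libraries only.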

How the data were processed

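NET-seq was carried out on 3 *rpa12Δ* and 3 WT samples. Per the labels, the authors trimmed and aligned the reads, and the submitters' processing notes name bcl2fastq 2.18.0.012, Trim Galore 0.4.1, BWA 0.6 and SAMtools 1.3.1. The genome build is not given in the sources used here. Each line of the deposited files is 1 aligned read with start, end, strand and a score, which is the mapping quality from 0 to 60. R64 gene coordinates were used, and in 68 of 76 snoRNA genes the highest position lay within 3 nt of the annotated 3′ end.

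The 5′ end of each read was counted in genes on the opposite strand, since the read is the complement of the RNA, and divided by the reads outside chromosome XII 451418 to 490526. Reads were counted whatever their quality, and PCR copies were kept, so the depth behind a value is that of reads, not molecules. Floors cover counting error only. The 95% intervals of log2 differences come from the limma fit and reflect the spread between libraries. Counting used pandas 2.3.3, numpy 2.4.6 and scipy 1.17.1 under Python 3.11.15, and matplotlib 3.10.9 drew the figures. Log2(RPM + 1) was tested in R 4.3.3 with limma 3.58.1 (variance trend, Benjamini-Hochberg over 2902 genes with a mean of at least 10 RPM, threshold 0.05). Log2 differences on this scale understate the change of low genes. *HXT5* was read from a fit over all 6260 genes with a read. The test was tested on simulated data. Alternatives changed the pseudocount, filter, denominator, mapping quality, read length, duplicates, depth, highest position, model, replicate block and libraries.

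All 7 members are named. Of each list, up to 3 called genes per direction are named, those with the largest difference, besides genes whose role is needed. Members and lists were chosen with earlier results of these data known.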

Additional observations from a re-analysis of the deposited data

How the results depend on the processing

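Of the 21 alternatives, the summed *HXT6* and *HXT7* difference was past the threshold in all 21, between -1.65 and -0.81, as were *HXT4* (-1.51 to -0.88) and *HXT7* (-1.74 to -0.68) in the 20 in which they gave a value. At a mapping quality above 10, *HXT6*, *HXT7* and their sum fell below the filter, and their values come from the fit over all genes with a read. *HXT6* was past it in 19 of 20 and was 0.12 with a mapping quality above 10, where 1 of its reads was left. Of the members, 0 were called lower with a filter of 50 RPM, which only *HXT2* and *HXT3* passed, and 5 without each gene's highest position. 1 member, *HXT2*, was called higher with all reads as the denominator, by the median ratio, by quantile normalization and with distinct intervals. *HXT3* turned to 0.10 with all reads as the denominator and 0.11 with distinct intervals. Genes called lower numbered 280 of 920 tested with the filter of 50 RPM, 380 with all reads as the denominator, 445 by quantile normalization and 445 of 5270 tested with distinct intervals, against 747 of 2902. Genes called higher numbered 591 with all reads as the denominator, 479 by the median ratio, 519 by quantile normalization, 70 of 2850 tested with a mapping quality above 10 and 845 of 5270 with distinct intervals, against 156 of 2902; the cause was not tested. Leaving out 1 library at a time gave 82 to 166 genes called higher and 449 to 1076 called lower, both lowest without *rpa12Δ* replicate 2, and *HXT5* values of -0.54 to 0.12. Same-numbered libraries did not deviate together over the genes tested (correlations of 0.167, 0.0136 and -0.023). With 3 libraries per strain, this cannot exclude that same-numbered libraries share a batch. With the replicate block, 216 genes were called higher and 897 lower, the sum of *HXT6* and *HXT7* was -1.26, 4 members were called lower and *HXT1* was past the threshold at -0.51 (limma adjusted p = 0.0377). Depth limits *HXT5*, and in WT 1 read is worth more RPM than in *rpa12Δ*.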
